A study of Rattus norvegicus with 56 samples.

Results

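The MAP kinase feedback regulators described here were 8 genes, phosphatases and Sprouty proteins that restrain growth factor and activity signalling together with 2 immediate early genes induced by it: Dusp1, Dusp4, Dusp5, Dusp6, Spry2, Spry4, Ier2 and Ier3. Each gene was followed with 1 microarray probe, the brightest among those whose RefSeq accession belonged to it, out of 13888 genes tested. The cells were primary hippocampal neuron cultures from Sprague-Dawley rat embryos of age E18, exposed in the dish to repetitive transcranial magnetic stimulation, in which a coil delivers brief magnetic pulses. Cultures received 1 Hz stimulation, intermittent theta burst stimulation (iTBS, short bursts repeated in trains) or sham handling with the coil held away from the plate, and RNA was collected 0, 2, 8, 24 and 48 h later. Untreated cultures were collected at 0 h. No transgene or drug separated the groups, and which embryos each culture came from is not stated. Each array held the RNA of cultured cells of mixed type rather than of sorted neurons.

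In the MAP kinase cascade, active Ras starts a chain of kinases in which MEK phosphorylates ERK, which drives transcription. The dual-specificity phosphatases remove the activating phosphates from the kinases. Dusp6 sits in the cytoplasm and prefers ERK, Dusp5 is a nuclear phosphatase for ERK, Dusp4 is nuclear with a wider choice of kinases, and Dusp1 is nuclear and acts strongly on p38 and JNK. The Sprouty proteins Spry2 and Spry4 act further up, near the receptor and Ras. Ier2 and Ier3 are immediate early genes, and Ier3 can prolong ERK activity by acting on its phosphatase. Most of these genes are transcribed in response to the cascade they restrain, and their messengers turn over fast, so that their levels are often read as a record of recent signalling.

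Levels are given as log2 processed signal, scaled so that every array had the same mean and spread, with 0 at each array's own mean and a step of 1 equal to about 1 doubling. A level therefore compares 1 probe between arrays and not a gene with another gene. Of 56 arrays, 55 were used, in 16 groups of 2 to 4, because the scanner marked the grid of 1 array of the 1 Hz group at 2 h as bad. The number in each sample's description ran through the arms and times 4 times, and these runs are called culture series A (11 arrays), B (12), C (17) and D (15). Nothing in the labels says what a series shared, and the p-values measure the spread between these cultures. The arrays lay on 7 slides, A on slides 1 and 2, B on 3 and 4, C on 5 to 7, and D on all 7. Between 66.1% and 81.8% of spots were well above background on an array, no spot was saturated, and all 8 probes were well above background on all 55 arrays. Neuronal markers were measured on every array (Map2, Syn1, Snap25 and Tubb3 among 9 of 9), and so were all 6 astrocyte and all 6 oligodendrocyte-lineage markers. Of 6 microglial markers only Itgam and Cx3cr1 were well above background on all arrays.

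Stimulation was the question the study asked, and none of the 8 regulators differed between stimulated and sham cultures past the threshold at any time. With limma and Benjamini-Hochberg adjustment over 35694 probes, 0 of 40 tests passed for 1 Hz against sham (8 genes at 5 times, 0.00168% of all probe tests called), 0 of 40 for iTBS against sham (0.00112%) and 0 of 40 for iTBS against 1 Hz (0.00168%). At an unadjusted p under 0.05 the counts were also 0, 0 and 0. These fits did not separate the culture series, and their standard errors ran from 0.43 to 0.89 on the log2 scale. When series was entered within each time, so that stimulated cultures were set against sham cultures of the same series, the standard errors fell to between 0.12 and 0.35, and still 0 of 40, 0 of 40 and 0 of 40 tests passed (0.00056%, 0.00728% and 0.00112% of all probe tests). In that fit 4, 4 and 2 tests had an unadjusted p under 0.05. Many of the 35694 probes had one as well. Their number at a single time ran from 622 to 5133 for 1 Hz against sham. It ran from 606 to 5794 for iTBS against sham and from 551 to 5879 for iTBS against 1 Hz.

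The 1 Hz cultures at 2 h show how much the series weighed. Without series in the fit, Dusp5 differed by -0.89 (SE 0.84), Spry4 by -0.73 (SE 0.74) and Dusp6 by -0.62 (SE 0.71) from sham, with adjusted p of 1 in limma for each. The 2 arrays of that group came from series C and D, and the 4 sham arrays from A, B, C and D. Against the sham array of its own series, Dusp5 was 3.52 to 3.66 in C and 4.87 to 4.98 in D, Spry4 was 2.16 to 1.98 and 2.88 to 2.76, and Dusp6 was 5.25 to 5.46 and 5.46 to 5.1. With series within time in the fit the differences were -0.16 (SE 0.16) for Dusp5, 0.12 (SE 0.19) for Spry4 and 0.07 (SE 0.17) for Dusp6.

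Dusp1, the p38 and JNK phosphatase, came closest to a difference, immediately after iTBS. The iTBS cultures at 0 h had levels of -0.48 in series A, -0.86 in B, -0.96 in C and 0.48 in D. The sham cultures at 0 h had -0.01, 0.07, -0.26 and 1.15 in the same order. Dusp1 was thus lower after iTBS in 4 of 4 series, with differences of -0.93 to -0.47, while both groups overlapped as a whole. The difference was -0.69 (SE 0.72, adjusted p = 1 by limma) without series and -0.69 (SE 0.18, adjusted p = 0.0768 by limma) with series within time, so it did not pass in either fit. The 1 Hz cultures at 0 h stood at 0.13 in B, -0.66 in C and 0.77 in D, which differed from the same sham arrays by 0.06, -0.4 and -0.38.

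Untreated cultures at 0 h gave 0 of 8 calls against sham (0.0028% of probes called), and 0 of 8 had an unadjusted p under 0.05. Dusp1 stood at -0.33 and -0.43 in the 2 untreated arrays of series A and at -0.9 and -1.23 in the 2 of series C. All 4 were below the sham array of their series, which were also the sham arrays that the iTBS comparison used. With series within time the untreated cultures differed from sham by -0.62 (SE 0.2) for Dusp1, by -0.5 (SE 0.13) for Dusp5 and by -0.35 (SE 0.14) for Dusp6, with limma adjusted p of 0.306, 0.171 and 0.528. These 3 genes were the only members with an unadjusted p under 0.05 in that fit. Of the 35694 probes tested, 2551 had one there as well. The untreated arrays came only from A and C.

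Over all times, 13 pairs of a 1 Hz and a sham array shared series and time, and 17 pairs of an iTBS and a sham array did. Within pairs the ERK phosphatases and Spry4 differed little. The median absolute difference was 0.19 for Dusp5 and 0.17 for Dusp6 under 1 Hz, and 0.18 and 0.2 under iTBS. For Spry4 it was 0.18 and 0.24. Dusp1 (0.38 and 0.4), Dusp4 (0.39 and 0.31) and Ier2 (0.5 and 0.31) differed more from pair to pair, and in both directions. The probes of Dusp1 and Dusp4 were also the dimmest of the 8, with median signals of 63.1 and 56.6, against 2450 for Dusp5, 5920 for Dusp6 and 4510 for Ier2. Dusp1 was lower than sham in 11 of 17 iTBS pairs and in 6 of 13 pairs under 1 Hz. Under iTBS its differences at 2 h were -0.5 in A, -0.38 in B, -0.4 in C and -0.49 in D. From 8 to 48 h they ran from -0.64 to 0.85. Ier3 had 0.14 and 0.38, and was higher in 8 of 13 pairs under 1 Hz and in 8 of 17 under iTBS.

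**Figure D1:**
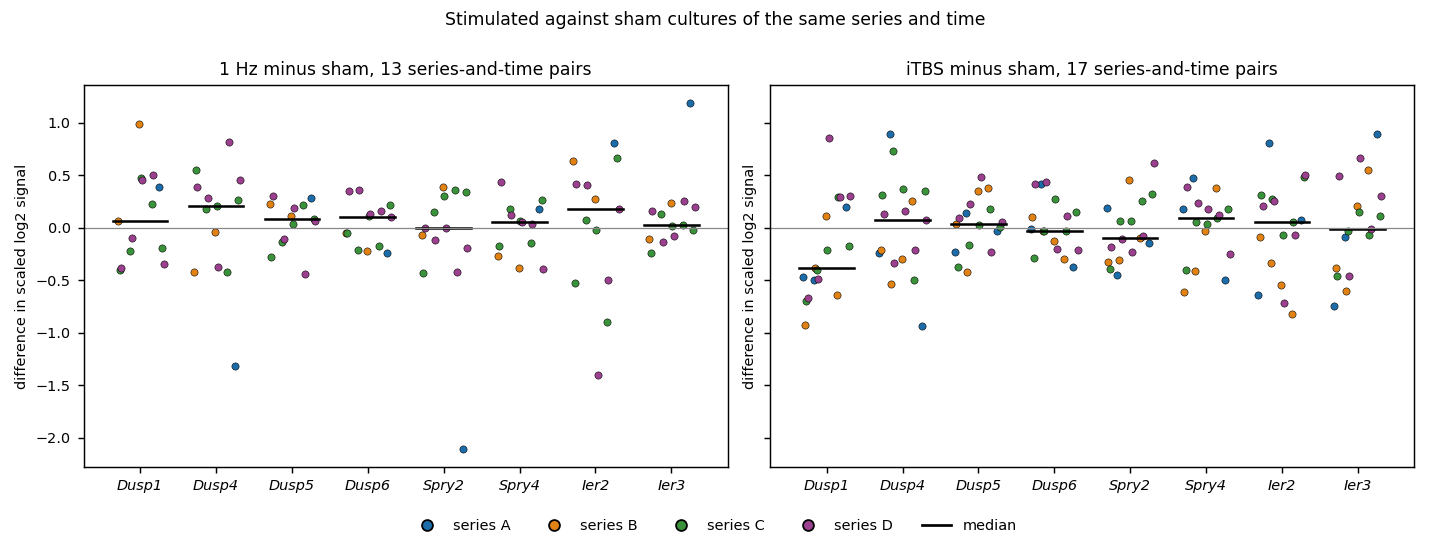
Each point is the scaled log2 signal of a stimulated array minus that of the sham array of the same culture series and time, for 1 Hz (left, 13 pairs) and iTBS (right, 17 pairs), in time order from 0 to 48 h within each gene and coloured by series; bars are medians. The medians lie within 0.38 of 0 for all 8 genes, and the farthest point is Spry2 in series A at 48 h under 1 Hz (-2.11).

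Culture series, in contrast, divided every one of the 8 regulators. The limma F test over series passed for 8 of 8, against 75.4% of all 35694 probes, so that the share called is high for any gene on these arrays. The adjusted p ran from 9.59e-22 for Dusp6 to 0.00307 for Ier2. With slide as a block 8 of 8 passed again, against 63.9% of probes. Series C was below series A for 8 of 8 genes, each past the threshold, where 22% of all probes were called lower. With normexp background correction 8 of 8 were lower and 7 passed, without Ier3 (-0.56, limma adjusted p = 0.0502). The median difference of the 8 was -0.94, and that of all probes -0.03. In the fit with slide as a block the estimate for C was also below A for 8 of 8, each past the threshold (12% of probes). A and C shared no slide, so that this fit compares them only through the arrays of D. It also takes the differences between series as equal at all times, and it cannot tell slide and these 2 series apart directly.

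Dusp5 and Dusp6, the 2 phosphatases most selective for ERK, held the largest shares of their variation between series, 84.6% and 90.4% of the sum of squares when series entered first. Dusp5 had a median of 5.62 (5.26 to 6.16) in A, 5.36 (4.88 to 5.71) in B, 3.65 (3.23 to 4.08) in C and 4.24 (3.45 to 5.21) in D. Every array of C was below every array of A and B. The difference between C and A was -2.09 (SE 0.12, limma adjusted p = 1.35e-16), and between D and A -1.38 (SE 0.13, limma adjusted p = 2.09e-11). With slide as a block the first was -1.26 (SE 0.21, limma adjusted p = 6.74e-05), a smaller size than without it.

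Dusp6 had a median of 6.88 (6.51 to 7.17) in A, 6.82 (6.49 to 7.26) in B, 5.45 (5.18 to 5.92) in C and 5.19 (4.86 to 5.9) in D. Neither C nor D overlapped with A or B on any array. The order was A and B, which differed by 0.02 (SE 0.09, limma adjusted p = 0.914), then C, which differed from B by -1.34 (SE 0.08, limma adjusted p = 3.45e-16), then D, which differed from C by -0.22 (SE 0.07, limma adjusted p = 0.0109). On the scale of unscaled processed signal the mean was 13700 in A, 10400 in B, 4810 in C and 5180 in D.

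Spry4 was also lower in C and D than in A. Its median was 4.24 (3.02 to 4.97) in A, 4.02 (2.86 to 4.47) in B, 2.41 (1.98 to 3.01) in C and 2.92 (2.57 to 3.18) in D. The arrays of C lay below all of A, while D overlapped with the low end of A. C differed from A by -1.67 (SE 0.16, limma adjusted p = 1.21e-10) and D by -1.17 (SE 0.17, limma adjusted p = 5.22e-07). These 3 genes were also the most alike of the 28 pairs of members across the 55 arrays, with Pearson's r of 0.841 for Dusp5 and Spry4, 0.835 for Dusp5 and Dusp6 and 0.813 for Dusp6 and Spry4. After the means of groups and of series at each time were taken out, r was 0.385, 0.104 and 0.333. These correlations are descriptions over arrays that share series, slides and scaling.

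Spry2, Dusp4 and Ier2 were lower in C than in A and did not pass between D and A. Spry2 had a median of 4.21 (1.97 to 5.21) in A, 4.22 (3.77 to 4.72) in B, 3.3 (2.98 to 3.94) in C and 4.29 (3.92 to 4.73) in D. C differed from A by -0.75 (SE 0.17, limma adjusted p = 0.000554), and D differed from A by 0.14 (SE 0.18, limma adjusted p = 0.556). Dusp4 was -0.41 (-2.06 to 0.48) in A, -0.71 (-1.58 to -0.11) in B, -1.47 (-2.07 to -0.83) in C and -0.63 (-1.16 to 0.19) in D. Its difference between C and A was -0.9 (SE 0.17) and between D and A 0.05 (SE 0.18). For Ier2 the same differences were -0.69 (SE 0.24) and 0.18 (SE 0.26).

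Dusp1 and Ier3 had their highest median levels in series D. Dusp1 was -0.48 (-0.96 to 2.02) in A, -0.99 (-1.9 to 0.13) in B, -1.23 (-1.62 to -0.26) in C and 0.77 (-0.17 to 1.33) in D. All 15 arrays of D were above all 17 of C. Ier3 was 1.69 (-0.15 to 2.98) in A, 1.42 (0.38 to 2.51) in B, 0.81 (0.43 to 1.91) in C and 2.41 (1.88 to 3.33) in D. D was above A by 0.86 (SE 0.23, limma adjusted p = 0.00226) for Dusp1 and by 0.89 (SE 0.3, limma adjusted p = 0.0171) for Ier3, the 2 of 8 members called higher in D (21.7% of probes). In the fit with slide these became 0.17 (SE 0.34) and 0.1 (SE 0.37), with limma adjusted p of 0.767 and 0.885, and neither passed. The 3 called lower in D than in A (20% of probes), Dusp5, Dusp6 and Spry4, stayed called with slide as a block. Between B and A, 0 of 8 members were called higher and 2 of 8 lower (16.7% of probes), Dusp1 by -0.88 (SE 0.24) and Dusp5 by -0.4 (SE 0.14). Neither was called with slide as a block.

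**Figure D2:**
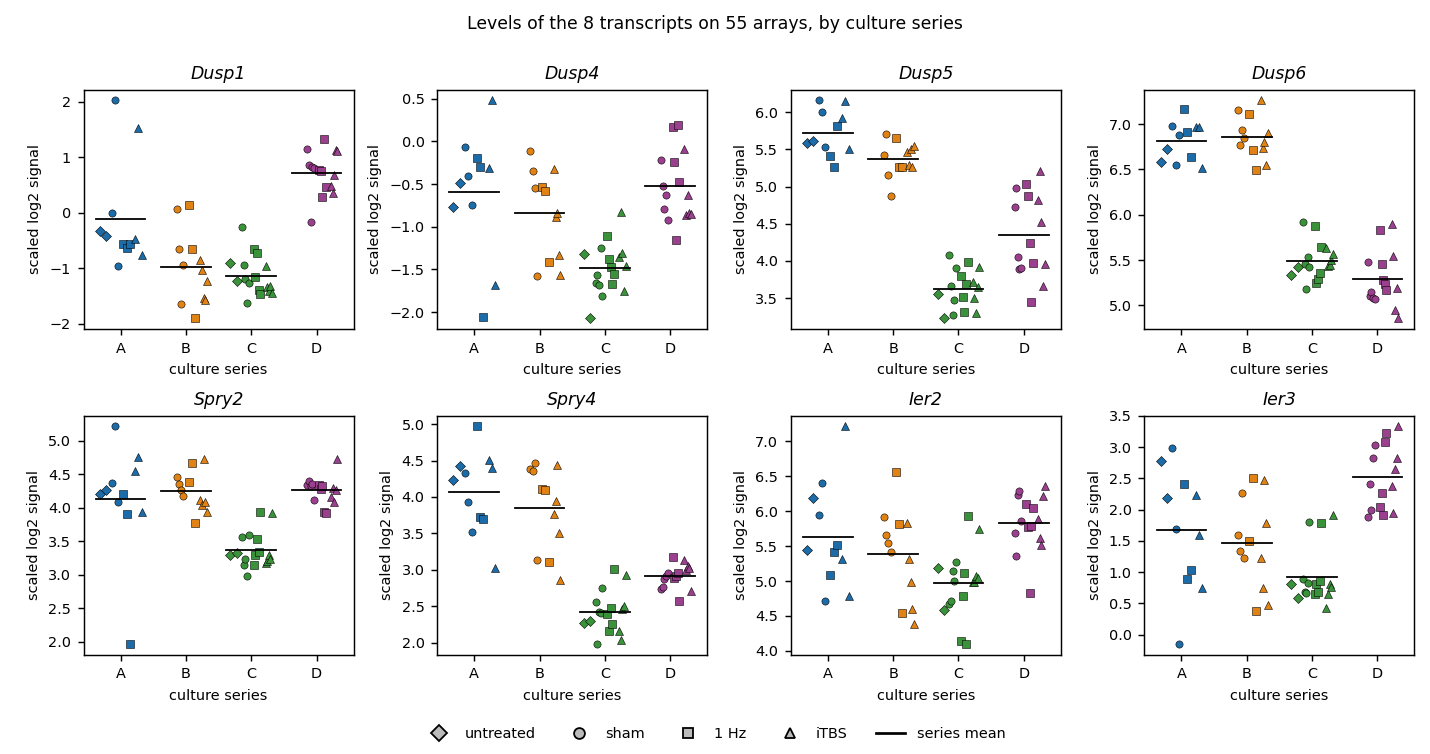
Scaled log2 signal of each of the 8 genes on the 55 arrays, by culture series and, by marker shape, arm; black bars are series means and each panel has its own axis. Dusp5, Dusp6 and Spry4 are low in C and D, and the series means of Dusp1 and Ier3 are highest in D.

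**Figure D3:**
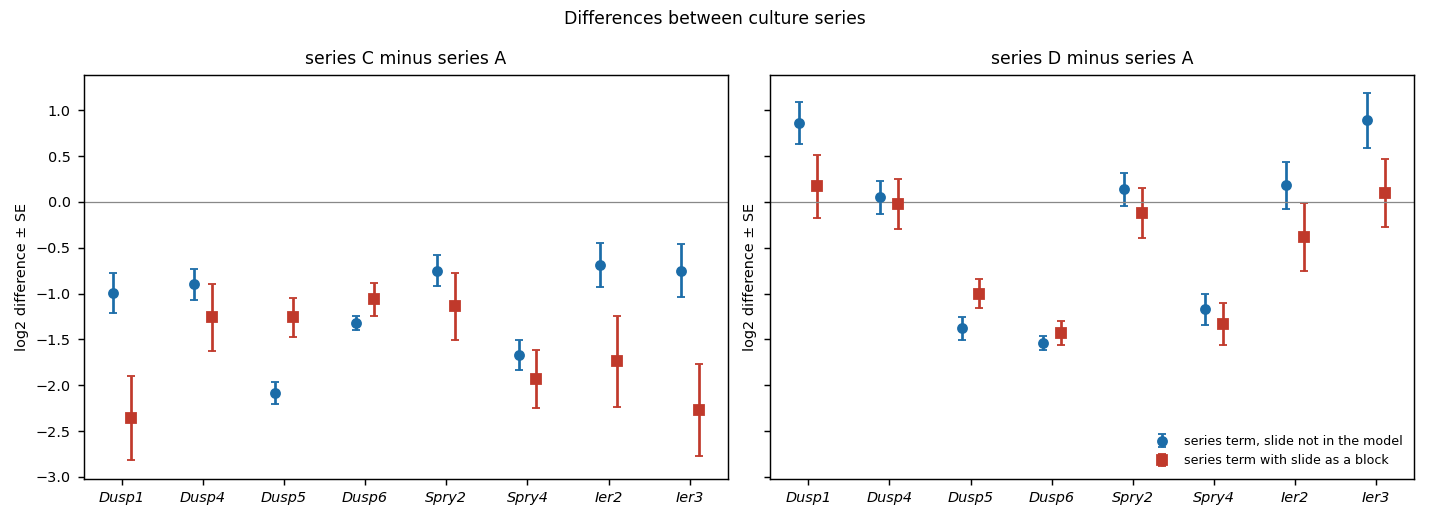
Differences of series C (left) and D (right) from series A with their standard errors, from limma fits without (circles) and with (squares) slide as a block. All 8 genes are below 0 in C in both fits, and in D the values of Dusp1 (0.86) and Ier3 (0.89) shrink to 0.17 and 0.1 when slide is in the fit.

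The cell type markers moved with series as well. Their part in the differences was not tested, and in RNA from whole cultures fewer cells of a type and less RNA per cell cannot be told apart. The mean level of the 6 oligodendrocyte-lineage markers was 5.69 to 7.15 in A, 6.99 to 8.09 in B, 7.44 to 8.32 in C and 4.02 to 5.36 in D. In C 3 of 6 were higher than in A, among them the myelin gene Mbp (4.99), and in D 5 of 6 were lower, among them the precursor receptor Pdgfra (-2.85). The 9 neuronal markers had a mean level of 4.42 to 5.59 in A, 4.28 to 4.85 in B, 4.3 to 4.59 in C and 4.75 to 5.31 in D. In C 5 of 9 were lower than in A and 0 higher. In D 3 of 9 were higher, Gad1 (1.06), Gad2 (0.53) and Snap25 (0.25), and 0 lower. The astrocyte list ran from 5.27 to 6.9 in A, 6.14 to 7.38 in B, 6.15 to 6.61 in C and 5.89 to 7.06 in D. In C 3 of 6 were higher than in A and 0 lower. In D 2 were higher, among them Gfap (2.95), and 2 lower, among them Aldh1l1 (-1.22), so that the mean hides opposite moves. Of 6 endothelial, mural and fibroblast markers, 3 were higher in C and 3 in D than in A, with Col1a1, a fibroblast collagen, at 2.42 and 5.44. In C 2 of 6 were lower, the fibroblast proteoglycan Dcn (-0.87) and Cldn5 (-0.99), while Cldn5 and Flt1, which define endothelial cells, were well above background on 6 and 4 of 55 arrays. The microglial list was between -1.62 and -0.01 in A, -2.06 and -0.98 in C, and -0.93 and 0.69 in D. In C 2 of 6 were lower than in A and 0 higher. They were Aif1 (-2.53) and C1qa (-4.01), well above background on 32 and 25 of 55 arrays, while Itgam (0.37) and Cx3cr1 (0.48) did not pass. In D 1 was higher, Tmem119 (4.49, on 21 arrays), and 1 lower, Cx3cr1 (-0.62). Over all probes 22% were called lower in C than in A, and in D 20% lower and 21.7% higher. The share called higher in C is not given here, so the counts of markers higher in C cannot be set against it.

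Time after stimulation, taken over the sham, 1 Hz and iTBS arms, gave no call without series in the fit: 0 of 8 passed the limma F test (8.16% of probes called), 0 of 8 within sham alone (0.0784%) and 0 of 8 for a time course that differed between stimulated and sham cultures (0.0028%). Only Dusp4 had an unadjusted p under 0.05 for the first, and no member for the other 2. With series as a block, 4 of 8 passed for time over the 3 arms, against 27% of probes. They were the 4 phosphatases, Dusp6 (limma adjusted p = 0.000301), Dusp5 (0.00074), Dusp4 (0.00467) and Dusp1 (0.0401), and none of the Sprouty or Ier genes. Dusp4, Dusp5 and Dusp6 passed whichever of the 55 arrays was left out, and Dusp1 in 37 of 55 such fits. With normexp background correction 2 of 8 passed, Dusp5 and Dusp6, and Dusp1 (limma adjusted p = 0.445) and Dusp4 (0.417) did not. When slide was the block in place of series, no member passed, and the smallest limma adjusted p was 0.247.

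In the fit with series as a block, all 4 phosphatases were lower at 48 h than at 0 h (4 of 8 members, 13.4% of probes lower). No slide held arrays of both 0 h and 48 h of the same series, so that within a series slide and these times cannot be told apart. Dusp6 fell by 0.42 at 8 h, by 0.41 at 24 h and by 0.45 at 48 h (SE 0.09 each, limma adjusted p = 0.00474, 0.0016 and 0.000136). Dusp5 fell by 0.48 (SE 0.13) at 8 h and by 0.66 (SE 0.14) at 24 h, and by 0.36 (SE 0.13) at 48 h. Dusp4 fell by 0.83 (SE 0.18) and Dusp1 by 0.69 (SE 0.23) at 48 h. At 2 h no member passed, with Dusp6 at -0.38 (SE 0.09, limma adjusted p = 0.828).

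The course over time was not the same in the 4 series. This was tested after the values had been seen, with an interaction of series and time in limma, and passed for 6 of 8 members against 39.4% of probes: Ier3 (limma adjusted p = 2e-08), Dusp1 (6.29e-06), Spry4 (2.32e-05), Dusp5 (0.000152), Ier2 (0.000374) and Spry2 (0.0177). Dusp4 (0.154) and Dusp6 (0.309) did not pass. Within a series the times lay on different slides in part. With slide as a block, 3 of 8 passed against 7.03% of probes, namely Ier3 (limma adjusted p = 0.00015), Dusp1 (0.000206) and Spry4 (0.017). Series by time took up 45.1% of the sum of squares of Ier2, 42% of that of Ier3 and 1.82% of that of Dusp6.

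In series A, Dusp1 and Ier2 were higher at 2 h than at 0 h, in the sham culture as well as after iTBS. Dusp1 was -0.33, -0.43, -0.01 and -0.48 on the 4 arrays of series A at 0 h (2 untreated, sham and iTBS) and 2.02 (sham) and 1.52 (iTBS) at 2 h. These were the 2 highest scaled levels of Dusp1 on the 55 arrays. The unscaled signal was 65.7 to 90.8 at 0 h, 525 in the sham culture and 143 after iTBS, whose array was the dimmest of the 55, with a 75th percentile of signal of 1896 against 3878 to 7479 on the 4 arrays at 0 h. The change was 1.91 (SE 0.25, limma adjusted p = 4.99e-05), and 1.76 (SE 0.27, limma adjusted p = 0.00322) with slide as a block. Changes within a series are estimates from the fit for the mean of the sham, 1 Hz and iTBS arms, without the untreated cultures as an arm. Where a series had no usable array of an arm, the fit filled that arm in from the other series. This was so for 1 Hz in A at 0 h and at 2 h. The sham array at 2 h and the 4 arrays at 0 h shared slide 1. Ier2 was 5.31, 5.44, 5.95 and 6.18 at 0 h and 6.4 (sham) and 7.21 (iTBS), a change of 1.22 (SE 0.36, limma adjusted p = 0.0352). The call for Ier2 was lost with slide as a block (0.85, SE 0.47, limma adjusted p = 0.429) and without any of 6 of the 53 arrays that could be left out, among them the iTBS array itself, which leaves 0.85. In series B, C and D no member passed at 2 h, and Dusp1 stood at -0.61 (SE 0.24), -0.48 (SE 0.2) and -0.15 (SE 0.21).

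Ier3, in contrast, fell in series A at 2 h by 0.87 (SE 0.25, limma adjusted p = 0.0291). Its levels were 2.19 to 2.98 at 0 h and 1.69 (sham) and 1.6 (iTBS) at 2 h. The counts of 2 of 8 members higher and 1 of 8 lower stood against 3.49% and 4.35% of probes. The medians were 0.11 for the 8 members and -0.02 for all probes. The call for Ier3 was lost without any of 4 arrays, the sham and iTBS arrays of A at 2 h, the sham array of A at 0 h or the 1 Hz array of D at 2 h, where the smallest change was -0.68.

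Dusp1 and Ier2 share a promoter element, and Dusp5 carries a different one. The element TGACGTCA is the full cyclic AMP response element (CRE), bound by CREB, and the CArG box is bound by serum response factor. Both are routes by which activity signals reach immediate early genes. The sequences below are the 250 bases before the annotated start, 5′ to 3′ on the gene's strand, from RefSeq on build GRCr8, with capitals where a motif was found on either strand. The motifs searched were the full CRE, its shorter core TGACG and the CArG box. The core CCGGAA, which ETS factors bind, was searched as well, and so was the AP-1 site.
Dusp1, chr10:17184603-17184852, plus strand: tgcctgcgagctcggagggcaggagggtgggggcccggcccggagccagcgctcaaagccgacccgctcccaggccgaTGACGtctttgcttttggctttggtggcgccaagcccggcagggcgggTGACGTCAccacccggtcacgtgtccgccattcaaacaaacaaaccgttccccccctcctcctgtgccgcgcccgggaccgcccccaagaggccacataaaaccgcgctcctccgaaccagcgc
Ier2, chr19:40399123-40399372, plus strand: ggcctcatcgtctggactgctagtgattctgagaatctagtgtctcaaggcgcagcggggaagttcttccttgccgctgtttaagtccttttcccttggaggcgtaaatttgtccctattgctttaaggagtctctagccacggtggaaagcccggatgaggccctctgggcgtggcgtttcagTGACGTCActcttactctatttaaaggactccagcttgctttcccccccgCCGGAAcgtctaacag
Dusp5, chr1:262543524-262543773, plus strand: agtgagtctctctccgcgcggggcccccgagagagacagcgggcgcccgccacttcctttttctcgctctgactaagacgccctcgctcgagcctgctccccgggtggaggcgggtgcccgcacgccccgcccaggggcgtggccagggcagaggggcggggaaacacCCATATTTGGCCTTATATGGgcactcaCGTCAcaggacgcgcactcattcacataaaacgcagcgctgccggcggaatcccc

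The full CRE began 124 bases before the start in Dusp1 and 66 bases before it in Ier2, and it occurred in 1.59% of 33469 promoter windows of the same length. Each full CRE holds the shorter core on both strands, and that core, found in 18.2% of windows, occurred in 4 of the 7 windows of the members, those of Dusp1, Dusp5, Spry2 and Ier2. Dusp5 held 2 CArG boxes side by side, from 82 to 63 bases before the start, and 1.5% of windows held at least 1. The ETS core CCGGAA stood in the windows of Spry2, Spry4 and Ier2 (12.6% of all windows). The AP-1 site TGANTCA (6.34% of windows) was in 0 of the 7. Windows were at hand for 6 of 8 members, with 2 for Spry2, and a match is a description of these letters only.

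By 48 h the series had parted. In series A 6 of 8 members were lower than at 0 h and 0 higher (9.08% of probes lower), and in series B 6 of 8 (17.4%). In series C 3 of 8 were higher (5.13%) and 1 lower (2.78%), and in series D 2 of 8 were lower (11.1%) and 1 higher (11.8%). With slide as a block Dusp6, Spry4 and Ier3 were called lower in A and Dusp1 in B, and no member passed in C or in D. The share of all probes called in that fit is not given here, so these calls cannot be set against it.

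Ier3 was 2.19, 2.78, 2.98 and 2.23 at 0 h in A and -0.15 (sham), 1.04 (1 Hz) and 0.74 (iTBS) at 48 h. It was 0.43 to 0.89 at 0 h in C and 1.8 (sham), 1.78 (1 Hz) and 1.91 (iTBS) at 48 h. In D it went from 1.88 (sham), 2.04 (1 Hz) and 2.37 (iTBS) to 3.03, 3.23 and 3.33. In B it went from 1.6 (sham), 1.49 (1 Hz) and 1.22 (iTBS) to 0.38 (1 Hz) and 0.47 (iTBS). In each series the arrays at 48 h did not overlap with those at 0 h. The changes were -2.01 (SE 0.21, limma adjusted p = 1.1e-07) in A, -1.16 (SE 0.24, limma adjusted p = 0.000481) in B, 1.14 (SE 0.19, limma adjusted p = 0.000392) in C and 1.1 (SE 0.2, limma adjusted p = 0.000299) in D, and none of the 4 calls was lost when any of the 53 arrays that could be left out was dropped. With slide as a block the change in A was -2.65 (SE 0.34, limma adjusted p = 4.49e-05), that in B -1.36 (SE 0.43, limma adjusted p = 0.109), that in C 1.3 (SE 0.64, limma adjusted p = 1) and that in D 0.01 (SE 1.08, limma adjusted p = 1). In none of the 4 series did a slide hold arrays of both 0 h and 48 h, so that within a series slide and these times cannot be told apart, and the fit with slide draws on the other series and times.

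Spry4 and Ier2 also moved in opposite directions between series. Spry4 fell by 1.03 (SE 0.18) in A and by 1.08 (SE 0.19) in B, and rose by 0.52 (SE 0.16, limma adjusted p = 0.0437) in C, a call lost when any of 15 arrays was left out. Ier2 fell by 1.79 (SE 0.34) in B and rose by 1.03 (SE 0.28, limma adjusted p = 0.0237) in C, a call lost without any of 4 arrays, with 0.69 without the 1 Hz array of C at 0 h. Spry2 in A fell by 1.06 (SE 0.28, limma adjusted p = 0.00684), but the 1 Hz array of A at 48 h, at 1.97, was far below sham (4.08) and iTBS (3.93). Without that array, the brightest of the 55 with a 75th percentile of signal of 18416, the change was -0.42 and did not pass. Dusp4 in A at 48 h (-1.3, SE 0.31) also rested on it, at -2.06, and stood at -0.95 without it, which did not pass.

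Dusp5 and Dusp1 differed between series in another way. Dusp5 fell in D by 1.19 (SE 0.14, limma adjusted p = 1.19e-06) at 24 h and by 0.91 (SE 0.14, limma adjusted p = 3.25e-05) at 48 h, from 4.73 to 5.03 at 0 h to 3.91 to 3.97 at 48 h. In C it stood at 0.07 (SE 0.13) at 48 h. Dusp1 fell by 1.36 (SE 0.24) in B, by 0.72 (SE 0.2) in C and by 0.64 (SE 0.22) in A, and in D stood at 0 (SE 0.21). Dusp6, which showed no interaction past the threshold, stood at -0.34 in A, -0.47 in B, -0.25 in C and -0.7 in D at 48 h, of which B and D passed. The call in B was lost without any of 4 arrays, with -0.18 without its 1 Hz array at 48 h.

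**Figure D4:**
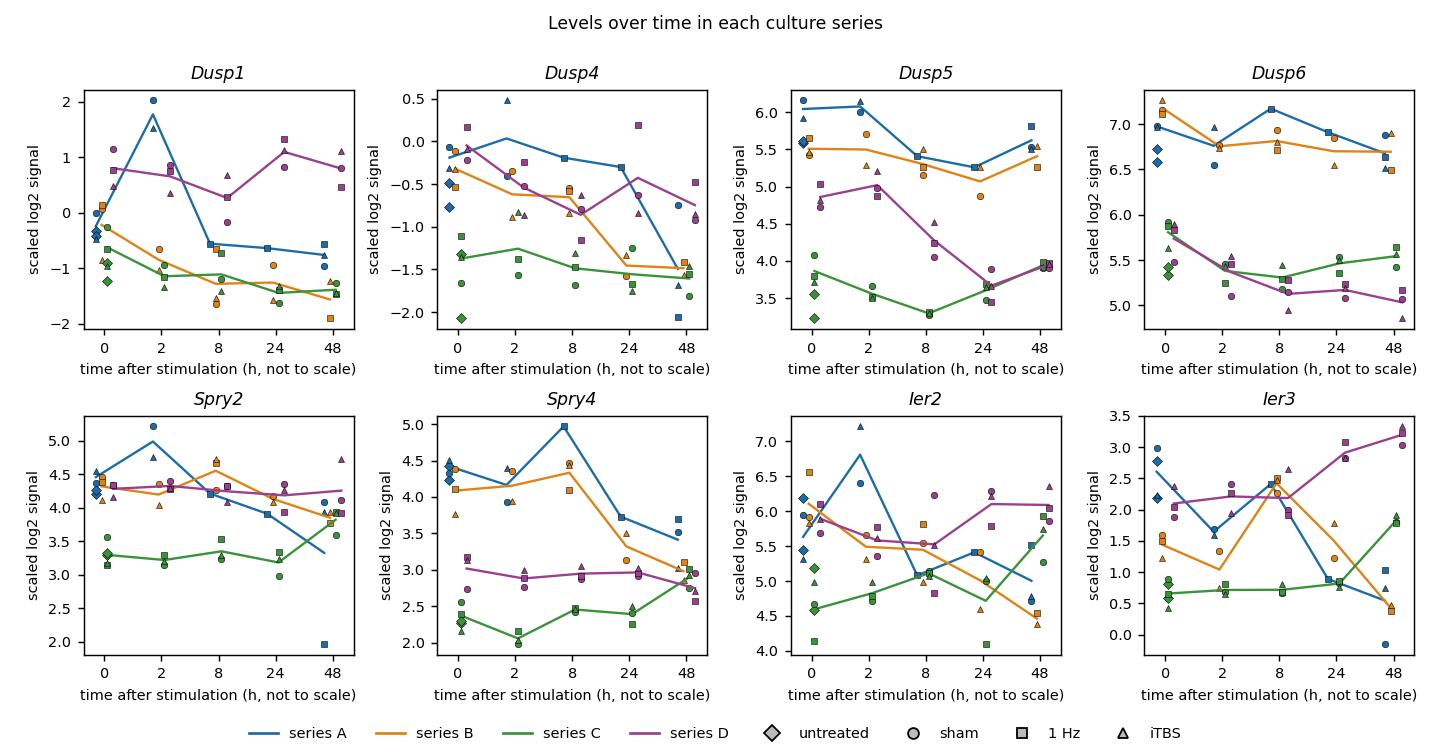
Scaled log2 signal over time for each gene, with lines through the series means of the sham, 1 Hz and iTBS arrays and marker shapes for the arms; times are evenly spaced on the axis. Dusp1 and Ier2 peak at 2 h in series A in both arms measured there, and Ier3 ends low in A and B and high in C and D.

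Transcripts that neurons induce with activity were examined beside the regulators. Of 8 such genes, 7 rose in series A at 2 h and 0 fell (3.49% and 4.35% of all probes), with a median of 1.87. Nr4a1, a nuclear receptor, was 4.93 to 5.29 at 0 h and 7.03 (sham) and 7.37 (iTBS) at 2 h, a change of 2.01 (SE 0.2, limma adjusted p = 9.36e-07). Npas4, a factor induced by calcium entry, rose by 2.63 (SE 0.75, limma adjusted p = 0.0292). Its probe was well above background on only 26 of 55 arrays, that of Fosb on 36, of Fosl1 on 40 and of Junb on 53. The probes of Fos, Egr1, Arc and Nr4a1 were so on all 55. Fosl1, singled out after its values were seen, was the 1 that did not pass (-0.4, SE 0.54). None of the 8 passed at 2 h in B, C or D. At 48 h 5 of 8 were lower in A (9.08% of probes) and 1 higher (11.9%), 6 of 8 were lower in B (17.4%), 5 of 8 were higher in C (5.13%), and in D 2 were higher (11.8%) and 1 lower (11.1%).

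**Figure D5:**
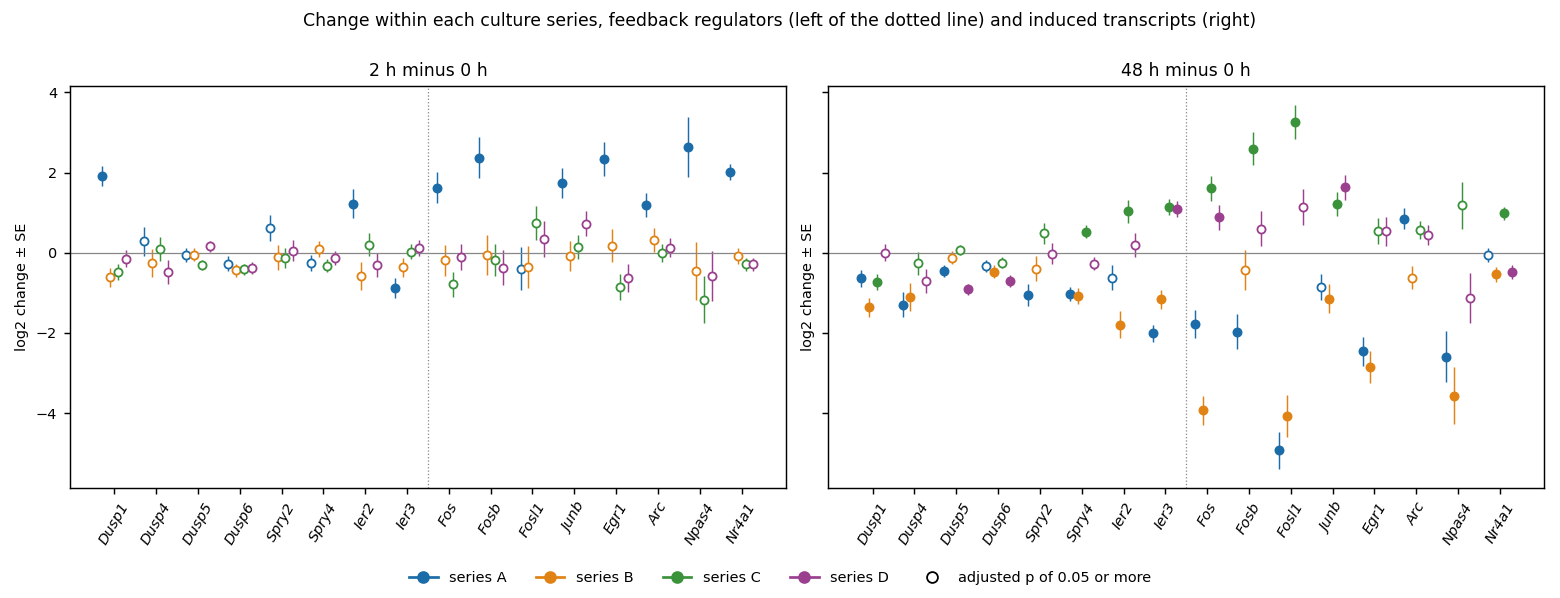
Change from 0 h within each culture series at 2 h (left) and 48 h (right), with standard errors, for the 8 regulators and for 8 activity-induced transcripts; filled points have a limma adjusted p under 0.05. At 2 h Dusp1 (1.91), Ier2 (1.22) and 7 of the 8 induced transcripts have filled points above 0 in series A, and at 48 h series A and B lie mostly below 0 and series C mostly above.

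Genes elsewhere in the pathway were counted in lists. No gene of the 7 lists passed for 1 Hz or iTBS against sham. Over all probes 75.4% passed for series and 8.16% for time without series, so that most of the counts for series lie near the share of all probes. Counts over time are from the fit without series unless stated. With series as a block, where 27% of all probes passed, time was called for 6 of 13 ERK targets and effectors, 4 of 16 genes of the Ras-ERK cascade, 6 of 10 of the JNK and p38 list, 5 of 12 growth factor ligands and receptors, 1 of 8 other Sprouty, Spred and feedback proteins, 0 of 6 other phosphatases and 2 of 8 induced transcripts. The ERK targets and effectors passed the series F test in 13 of 13, with a median of -0.17 for C against A, and time without series in 1 of 13, Mknk2, a kinase that ERK activates (limma adjusted p = 0.0468). Mknk1, its paralogue, came next (0.146). In the Ras-ERK cascade 11 of 16 passed for series, with 3 higher and 4 lower in C than in A and a median of -0.1, and 1 of 16 for time, the adaptor Shc1 (0.00763). Of the JNK and p38 list 7 of 10 passed for series and 2 for time, Map2k7 (0.00618), the activator of JNK, and Mapk9 (0.0342), a JNK. Other MAP kinase phosphatases passed for series in 5 of 6 and for time in 0 of 6, with Dusp2 (0.873) and Dusp16 (0.9) first, and in C 1 was higher than in A and 1 lower. Other Sprouty, Spred and feedback proteins passed for series in 7 of 8, with 6 of 8 lower in C and none higher, and a median of -0.58. Their first genes for time were Ier5 (0.332) and Spred2 (0.565). Growth factor ligands and receptors passed for time in 3 of 12, with Erbb4, a neuregulin receptor (0.0353), and Fgf1 (0.0373) first, and in C 2 of 12 were higher and 4 lower.

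For each regulator the 3 genes most like it were sought by Pearson's r of the level over the 55 arrays, among 13887 other genes. Dusp6 was most like Etv5 (Pearson's r = 0.926), an ETS factor, followed by Tex10 (0.922) and Lpar6 (0.903). Dusp5 was most like Vgf (0.913), a neurotrophin-induced secreted peptide precursor, Amigo2 (0.9) and Arc (0.889). Dusp1 was most like Nfil3 (0.914), Sult2b1 (0.892) and Rgs7bp (0.879), and Ier2 like Gdf15 (0.85), Fos (0.798) and Atf3 (0.792). Ier3 was most like Stc2 (0.918), Eprs1 (0.913) and Gprc5a (0.885), and Spry4 like Gbx2 (0.904), Pvr (0.892) and Sc5d (0.872). Dusp4 came nearest to Wscd2 and Abhd2 (0.865 each) and Kcnq1 (0.846), and Spry2 to Bhlhe40 (0.833), Mboat7 (0.826) and Cth (0.81). These values describe arrays that fall into 4 series, and carry no test.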

How the data were processed

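RNA of rat hippocampal cultures was labelled with Cy3 and hybridised to 1-colour Agilent arrays. The authors deposited the scanner's processed signal intensity for each spot and a table of z-score values made within each array from log2 signal. Z-scores recomputed here differed from the deposited score values by at most 0.005. Here log2 processed signal was averaged over the spots of a probe, outlier spots left out, converted to z-scores within each array and brought back to a log2 width with 1 common factor, the median of the arrays' SDs (4.058). Of 45598 probes, 35694 were tested, namely those well above background on at least 3 arrays and without a missing value (9484 and 420 were removed). Group means were fitted with limma 3.58.1 in R 4.3.3 (lmFit, eBayes, 39 residual degrees of freedom), with Benjamini-Hochberg adjustment over all probes and a threshold of 0.05. The scripts were tested on simulated data. Python 3.11.15 and matplotlib 3.10.9 drew the plots. The number of arrays, 2 to 4 per group, limits the precision.

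The 8 members are always named, and the 2 genes of each pathway list with the smallest p for time, except 1 gene that is not reported here. The members and lists were chosen with earlier results of these data known. Culture series was read from the number in the sample descriptions. Alternatives were scaling to the 75th percentile, quantile normalization, normexp background correction with an offset of 50 on median signal, no filter, all 56 arrays, blocks for series, series within time, slide and replicate number, and leaving out each array in turn. Series by time, its slide block, the slide block for series and the deposited scores were added after the data had been seen. Replicate numbers did not pair the arrays.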

Additional observations from a re-analysis of the deposited data

Results flagged for a closer look

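Among groups of 4 arrays, 1 array stood apart from the others in 7 of 64 checks (8 groups and 8 genes), where chance gives about 1 in 20. Dusp1 was 0.28 in the 1 Hz array of series D at 8 h, against -0.73 to -0.56 in the others. Dusp4 was -1.66 in the sham array of series C at 0 h (others -0.22 to -0.07), -1.56 in the sham array of C at 2 h (others -0.52 to -0.35) and 0.48 in the iTBS array of A at 2 h (others -0.89 to -0.83). Spry2 was 1.97 in the 1 Hz array of A at 48 h (others 3.77 to 3.94), 3.57 in the sham array of C at 0 h (others 4.34 to 4.45) and 4.73 in the iTBS array of D at 48 h (others 3.92 to 3.93). Each of the groups named here held 1 array per culture series, so that within a group these values and series cannot be told apart. Beside the sham array of the same series and time, Spry2 at 1.97 stood against 4.08 and at 4.73 against 4.11. Dusp4 at 0.48 stood against -0.41, and Dusp1 at 0.28 against -0.17. The sham values were set beside the iTBS array of series C at the same time. Dusp4 at -1.66 stood against -1.35 and at -1.56 against -0.83, and Spry2 at 3.57 against 3.18.

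The change over time differed between culture series by an interaction test in limma for 6 genes, with adjusted p of 2e-08 for Ier3, 6.29e-06 for Dusp1, 2.32e-05 for Spry4, 0.000152 for Dusp5, 0.000374 for Ier2 and 0.0177 for Spry2. Times within a series lay partly on different slides, and the fit with slide as a block kept Ier3, Dusp1 and Spry4.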

How the results depend on the processing

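Under the scalings, filters and blocks tried on the 55 arrays, the counts of members called stayed at 0 of 8 at each time for both protocols and at 8 of 8 for culture series. With all 56 arrays, which brings back the 1 Hz array at 2 h with the bad grid, 5 tests passed for 1 Hz against sham and 5 for iTBS against 1 Hz, and 2 members passed for series by time. The members were then Dusp5 (smallest adjusted p 0.0113), Spry4 (0.0143), Spry2 (0.0163), Ier2 (0.0187) and Dusp6 (0.0274), and Ier2 did not pass for culture series (0.145). Series as a block raised the calls for time after stimulation from 0 to 4, and normexp with that block gave 2. Slide as the block in place of series left time after stimulation without a call. Normexp also lowered the calls for series C against A from 8 to 7. Slide as a block lowered the calls for series by time from 6 to 3. Leaving out each array in turn gave 0 to 0 calls for stimulation, untreated cultures and time, 8 to 8 for culture series and 5 to 7 for series by time, where Spry2 did not pass without the sham array of series A at 2 h and Dusp4 passed without the sham array of A at 48 h. That fit could not be made without 2 of the arrays.

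With the replicate number as a block, 0 members passed for stimulation, untreated cultures or time and 8 for culture series, so no call changed. Deviations from group means correlated at a mean r of 0.16 (-0.462 to 0.78) between arrays of one number, with 31 of 55 arrays best with their own number, and at 0.398 between arrays of one series, with 55 of 55, so the numbers do not pair the arrays.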
